A study of Rattus norvegicus with 12 samples.

Results

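Serum microRNAs of rats given caffeine and dextromethorphan were examined as a 2 x 2 design, in which each drug is absent or present, to see whether the level after the pair equalled the sum of the 2 single-drug effects on the log scale. All 12 libraries enter, 3 in each of 4 groups: vehicle (control), caffeine, dextromethorphan, and both. The departure of a microRNA is the mean log2 level after both drugs, minus the mean after caffeine, minus the mean after dextromethorphan, plus the control mean. It is 0 when the pair multiplies the single-drug folds, and negative when the level after the pair is below that product. Rows with one name were summed, and every microRNA above 0 in at least 3 of the 12 libraries was a member, which gave 479 of 752 names. Of these, 366 had a mean of at least 80 FPKM (reads scaled by microRNA length and by the library's assigned reads) and were tested, and 113 were not.

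The animals were male Sprague-Dawley rats (Jcl:SD), 7 weeks old at grouping, with 5 per group in the design text. Caffeine was given by mouth once at 180 mg/kg and dextromethorphan hydrobromide monohydrate at 200 mg/kg, in sterile distilled water, and control rats received the water alone. In the combination group dextromethorphan came 1 h after caffeine, and blood was drawn 1 h after dextromethorphan, so caffeine had acted for longer than dextromethorphan. The time between caffeine alone and bleeding is not stated separately. Nothing in the labels says that each library came from its own animal, and p-values therefore speak only of library-to-library spread.

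MicroRNAs are short RNAs that guide Argonaute proteins to messenger RNAs, mostly through the seed, bases 2 to 8 of the microRNA. Many are made mainly in 1 cell type and reach serum in vesicles, bound to protein, or from damaged cells, so a serum level joins release, clearance and the mixture of source cells. Caffeine blocks adenosine receptors, and dextromethorphan is an antitussive that blocks NMDA receptors. Serum is a mixture, and fewer source cells and less RNA per cell cannot be told apart in it.

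The levels after both drugs departed from the sum of the single-drug effects for 17 of 366 microRNAs (limma adjusted p under 0.05), 4.64% of those tested, and each of the 17 lay below the sum. They were microRNAs of liver, gut and kidney (miR-802-5p, miR-192-5p, miR-192-3p, miR-194-5p and miR-193a-5p), of epithelium (miR-429, miR-200b-3p, miR-200b-5p, miR-200a-3p and miR-141-3p), of endocrine cells (miR-375-3p) and of striated muscle (miR-1-3p, miR-1b and miR-133a-3p), with miR-224-5p, miR-152-3p and miR-199a-3p beside them. None lay above the sum by limma at that threshold, while 1 did at an unadjusted p under 0.05. The departures ranged from -4.97 for miR-802-5p to -1.39 for miR-152-3p. The product of the single-drug folds ran from 3.13-fold to 68.5-fold of control for these 17, and the fold measured after both drugs from 0.938 to 3.59.

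The mature sequences below, from RefSeq (build GRCr8), are shown because the departing microRNAs fall into several seed groups, and their seeds are in capitals. RefSeq sequences matched 442 of the 479 members and 13 of the 17, and miR-429, miR-200a-3p, miR-200b-3p and miR-802-5p are given by name only. The matched miR-192-3p, miR-193a-5p, miR-199a-3p and miR-224-5p are not printed. Printed for their shared seeds are miR-200a-5p, miR-206-3p, miR-148a-3p and miR-148b-3p, which did not pass. The muscle microRNAs miR-1-3p, miR-1b and miR-206-3p share 1 seed, the passenger strands miR-200b-5p and miR-200a-5p share another, and miR-152-3p shares its seed with miR-148a-3p and miR-148b-3p.
miR-192-5p: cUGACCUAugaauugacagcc
miR-194-5p: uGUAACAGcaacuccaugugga
miR-375-3p: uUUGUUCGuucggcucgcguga
miR-141-3p: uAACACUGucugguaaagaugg
miR-200b-5p: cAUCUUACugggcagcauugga
miR-200a-5p: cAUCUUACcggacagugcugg
miR-1-3p: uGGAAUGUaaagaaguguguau
miR-1b: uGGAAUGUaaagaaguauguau
miR-206-3p: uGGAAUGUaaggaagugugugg
miR-133a-3p: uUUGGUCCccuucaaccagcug
miR-152-3p: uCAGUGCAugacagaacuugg
miR-148a-3p: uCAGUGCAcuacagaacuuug
miR-148b-3p: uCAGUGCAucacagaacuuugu

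miR-1-3p and miR-1b differ at 1 base, G17A counted from the 5′ end of miR-1-3p, so a read of one can be taken for the other and their 2 values are not independent.

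Over all 366 tested microRNAs the median departure was -0.39, the middle 50% of values lay between -1.10 and 0.15, and 250 were below 0 against 116 above. A departure under -1 was seen for 106 microRNAs and one over 1 for 12. At an unadjusted p under 0.05 there were 78, of which 77 were negative. The median level against control was 0.19 log2 units higher after caffeine, 0.47 after dextromethorphan and 0.24 after both. FPKM are shares of the reads assigned to microRNAs, so this common shift depends on the scaling: with median-of-ratios scaling, which sets the typical microRNA equal between libraries, the median departure moved by 0.49 to 0.10, and with quantile normalization it was 0.14. Measured from the median of all tested, the departure of miR-802-5p was -4.59. Each of the 17 stayed below 0, which was fixed beforehand because all 17 lay further below 0 than the median.

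**Figure D1:**
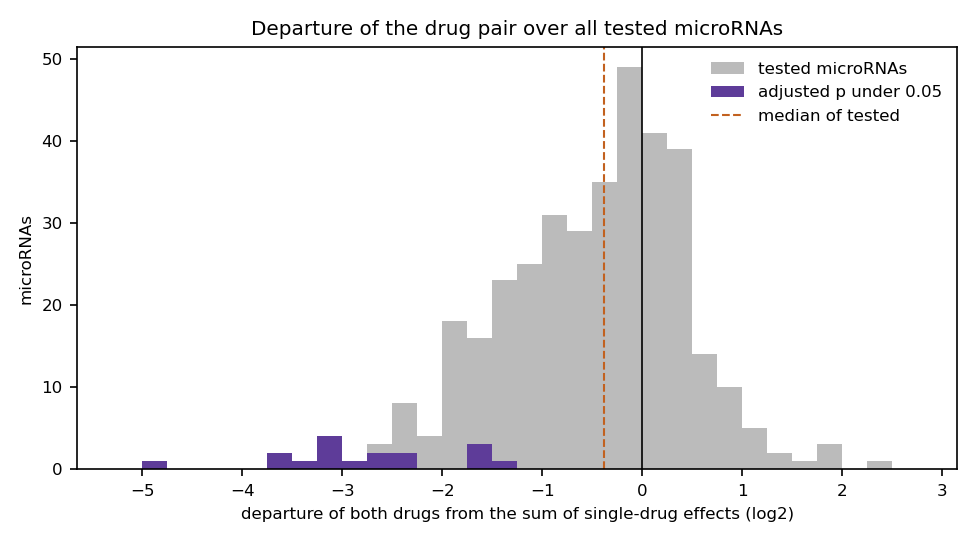
Number of tested microRNAs (vertical axis) by departure in log2 units (horizontal axis), with the 17 at a limma adjusted p under 0.05 in violet and the median of the 366 tested, -0.39, as a dashed line. The 17 lie between -4.97 and -1.39, and the right side reaches 2.29 with none passing.

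Libraries differed in depth: reads assigned to listed microRNAs ran from 1304868 to 2625593 in control, 1504963 to 1842796 after caffeine, 403913 to 895792 after dextromethorphan and 758290 to 1160717 after both. The departure of log2 depth was 1.09 (two-sided exact permutation over the splits of 12 libraries, p = 0.279). A common index of haemolysis, log2 of miR-451-5p (red cells) over miR-23a-3p, averaged -7.56 for control, -6.75 for caffeine, -5.62 for dextromethorphan and -6.00 for the pair, a departure of -1.19 (exact permutation p = 0.264). It rests on few red-cell reads, 38 to 139.5 of miR-451-5p per library against 2407 to 20111 of miR-23a-3p. The share of miR-191a-5p departed by 7.82 percentage points (exact permutation p = 0.320), and each of the 3 had an adjusted p of 0.320. These permutations move libraries across all groups, so differences between single drugs and control widen the spread they compare with. They therefore cannot exclude a departure of depth, red-cell ratio or miR-191a-5p share, and nothing is read from them. DEX2 and DEX3 stood apart on the second principal component, with scores of 12.74 and 10.75 against -7.575 to 1.58 elsewhere. They were also the shallowest libraries, with 443564 and 403913 reads, and had the highest red-cell ratios, -5.13 and -5.26. The part of depth and of the red-cell ratio in the departures was not tested beyond the fits with each as a covariate, which called 5 and 7 microRNAs.

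Levels below are FPKM, given in the library order ctrl1, ctrl3, ctrl5, then CAF3, CAF4, CAF5, then DEX1, DEX2, DEX3, then CAFDEX2, CAFDEX3, CAFDEX6. Departures are log2 differences with their standard error (SE, n = 3 per group), and adjusted p-values are from limma with Benjamini-Hochberg adjustment over all 366.

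The liver and gut group held the largest departure. miR-802-5p, made in liver and intestine, had 68, 18 and 109 FPKM in control, 588, 258 and 791 after caffeine, 957, 1610 and 1061 after dextromethorphan, and 321, 126 and 123 after both. Each treated library lay above each control, and all 3 combination libraries lay below all dextromethorphan libraries. The departure was -4.97 ± 0.76 (adjusted p = 0.00145), so the level after both was 31.4-fold under the product of the single-drug folds (95% interval 10.3 to 95.4). These values rest on few reads, 1 to 25 per library. The size of the departure depended on the pseudocount, the constant added to FPKM before logs were taken. With 10 FPKM it was -5.69 and with 160 FPKM -3.57, and miR-802-5p passed with each. The 95% interval takes no account of that choice. The other arm of the hairpin, miR-802-3p, had a departure of -1.75 ± 1.26 and did not pass.

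miR-192-5p and miR-194-5p are transcribed together in liver, gut and kidney. miR-192-5p had 41518, 58068 and 77329 FPKM in control, 122309, 100089 and 168269 after caffeine, 336051, 694358 and 402118 after dextromethorphan, and 174566, 149260 and 102331 after both. The dextromethorphan libraries were highest, and the caffeine and combination libraries overlapped. It was 2.23-fold of control after caffeine, 7.95-fold after dextromethorphan and 2.43-fold after both, against a product of 17.7-fold (departure -2.87 ± 0.46, adjusted p = 0.00145). For miR-194-5p the levels were 4234, 4276 and 6026 in control, 6970, 5951 and 10700 after caffeine, 29126, 73578 and 59531 after dextromethorphan, and 12112, 10071 and 8028 after both. The lowest dextromethorphan library was above the highest of every other group. Its departure was -3.01 ± 0.49 (adjusted p = 0.00145), which is 8.04-fold under the product (3.88 to 16.7). In rn6, the build in the submitters' processing notes, miR-192-5p occupies bases 221634994 to 221635014 of chromosome 1 with a copy of miR-194-5p 194 bases away, and another copy lies on chromosome 13 at 103250590 to 103250611. The star strand miR-192-3p, with 4 to 18 reads per library, had 86, 121 and 139 FPKM in control, 354, 247 and 513 after caffeine, 913, 922 and 1575 after dextromethorphan, and 787, 360 and 470 after both. Its departure was -2.41 ± 0.62 (adjusted p = 0.0415), and that of miR-194-3p was -2.36 ± 0.71 (adjusted p = 0.0718, not passing).

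miR-193a-5p, from a gene on chromosome 10 at 67065915 to 67065936, moved less. It had 2679, 2649 and 2438 FPKM in control, 5139, 3231 and 4500 after caffeine, 6343, 4816 and 6977 after dextromethorphan, and 2929, 4346 and 1919 after both. All single-drug libraries lay above control, and the combination libraries spanned the control range. The departure was -1.73 ± 0.46 (adjusted p = 0.0415). In the list of liver, gut and kidney microRNAs 5 of 12 tested members departed below the sum, none above, and 7 did not pass, where 4.64% of all tested departed below it. The list's median was -1.74 against -0.39 over all tested.

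Hepatocyte-derived miR-122-5p had one of the highest levels in serum and did not pass. It had 983159, 794034 and 2248318 FPKM in control, 4789289, 3048658 and 4889604 after caffeine, 6843415, 2894994 and 2676921 after dextromethorphan, and 4599560, 3397388 and 4550955 after both. Every treated library was above every control, and the 3 treated groups overlapped. Its log2 changes against control were 1.78 after caffeine, 1.64 after dextromethorphan and 1.78 after both, where the sum is 3.42, and the departure was -1.64 ± 0.55 (adjusted p = 0.0945, 95% interval -2.81 to -0.47). miR-148a-3p, also abundant in liver, had a departure of 0.42 ± 0.40.

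The miR-200 family keeps epithelial cells in their state by repressing Zeb1 and Zeb2. Its members come from 2 clusters: miR-200b, miR-200a and miR-429 on chromosome 5 between 173488342 and 173490218 on the minus strand, and miR-141 with miR-200c on chromosome 4, where miR-141-3p lies at 157236361 to 157236382. miR-429 had 1577, 1368 and 2299 FPKM in control, 4342, 2935 and 5255 after caffeine, 8525, 25619 and 19919 after dextromethorphan, and 3979, 3657 and 2741 after both. Dextromethorphan libraries were highest, with DEX1 below DEX2 and DEX3, and the combination libraries lay inside or just under the caffeine range. The departure was -3.48 ± 0.55 (adjusted p = 0.00145), 11.1-fold under the product (4.93 to 25.1). miR-200b-3p, with reads that were whole in all 12 libraries, had 1302, 1292 and 2366 FPKM in control, 4464, 2642 and 4131 after caffeine, 6747, 24995 and 17976 after dextromethorphan, and 2928, 2810 and 2173 after both. CAFDEX6 was within the control range, and no combination library reached the lowest dextromethorphan library. It departed by -3.64 ± 0.60 (adjusted p = 0.00145).

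Another 2 members of the chromosome 5 cluster passed. miR-200a-3p had 1426, 1212 and 2647 FPKM in control, 3633, 2393 and 3775 after caffeine, 5531, 16191 and 17105 after dextromethorphan, and 2558, 2697 and 2271 after both, a departure of -3.12 ± 0.59 (adjusted p = 0.00513). Control and combination libraries overlapped for it. miR-200b-5p, the other arm of the miR-200b hairpin, had 518, 519 and 592 in control, 1152, 493 and 1042 after caffeine, 1979, 6661 and 5739 after dextromethorphan, and 415, 779 and 901 after both, with a departure of -3.20 ± 0.67 (adjusted p = 0.0116). Its combination libraries lay on both sides of control. miR-200a-5p did not pass (-2.64 ± 0.95, adjusted p = 0.122).

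In the chromosome 4 cluster miR-141-3p had 1058, 944 and 1602 FPKM in control, 3042, 2023 and 1993 after caffeine, 3450, 11887 and 11704 after dextromethorphan, and 2995, 2158 and 1841 after both. The caffeine and combination libraries covered almost the same range, above control and below dextromethorphan. Its departure was -2.72 ± 0.61 (adjusted p = 0.0184). Its neighbour miR-200c-3p, 429 bases away, had 8961, 6765 and 7518 in control, 11077, 6253 and 8353 after caffeine, 9888, 47129 and 56825 after dextromethorphan, and 12505, 11241 and 10297 after both. Only DEX2 and DEX3 were high, the departure of -1.51 ± 0.68 did not pass (adjusted p = 0.223), and without those libraries it was 0.079. miR-203a-3p of stratified epithelium departed by -2.36 ± 0.72 and did not pass (adjusted p = 0.0751). Of 14 tested members of the epithelium list 5 departed below the sum and 9 did not pass, where 4.64% of all tested departed below it. Among the 5, miR-429, miR-200a-3p, miR-200b-3p and miR-200b-5p come from the same cluster and are not independent. All 14 had a departure under 0, as did 68.3% of all tested, and their median was -2.28 against -0.39. The summed level of that list was 47994 to 81304 FPKM in control, 115645 to 181030 after caffeine, 121292 to 336024 after dextromethorphan and 79998 to 165443 after both.

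miR-375-3p, made in islet and enteroendocrine cells, had 9159, 9937 and 4772 FPKM in control, 7856, 5402 and 11417 after caffeine, 25117, 34842 and 53004 after dextromethorphan, and 7214, 7733 and 6422 after both. It was high in the dextromethorphan libraries alone, and the other 3 groups overlapped. The log2 change against control was 0.05 after caffeine, 2.24 after dextromethorphan and -0.09 after both. Its departure was -2.38 ± 0.51 (adjusted p = 0.0121), 5.22-fold under the product.

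Striated muscle microRNAs had the opposite order of the single drugs, with caffeine highest. miR-1-3p, which promotes muscle differentiation, had 1577, 1108 and 3727 FPKM in control, 38350, 14923 and 13507 after caffeine, 2588, 8813 and 5852 after dextromethorphan, and 11718, 7073 and 3329 after both. The combination libraries lay below all caffeine libraries and overlapped dextromethorphan and control. Its log2 change against control was 3.37 after caffeine, 1.43 after dextromethorphan and 1.78 after both (departure -3.03 ± 0.80, adjusted p = 0.0415). miR-1b had 389, 346 and 1533 in control, 13852, 4859 and 6152 after caffeine, 913, 4202 and 3714 after dextromethorphan, and 3017, 2817 and 1253 after both. CAFDEX6 and DEX1 were within the control range. It departed by -3.70 ± 0.89 (adjusted p = 0.0259), with a wide interval of 3.50-fold to 48.0-fold under the product.

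miR-133a-3p, which lies 2453 bases from miR-1-3p on chromosome 18, had 536, 577 and 941 FPKM in control, 8279, 3141 and 3353 after caffeine, 1319, 2323 and 2063 after dextromethorphan, and 2543, 2612 and 1149 after both. All treated libraries were above control, and the dextromethorphan and combination groups overlapped. The departure was -2.58 ± 0.62 (adjusted p = 0.0259). miR-206-3p, found in skeletal muscle, had 6221, 6721 and 20169 in control, 156286, 69854 and 67841 after caffeine, 9540, 40222 and 36687 after dextromethorphan, and 51397, 65638 and 24397 after both, and its departure of -2.41 ± 0.80 did not pass (adjusted p = 0.0945). Of 5 tested muscle members 3 departed below the sum and 2 did not pass, against 4.64% of all tested below it, and miR-1-3p and miR-1b among the 3 are not independent. The median was -2.58 against -0.39 over all tested.

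The last of the 17 belong to no common source. miR-224-5p, encoded on the X chromosome, had 2571, 2112 and 3553 FPKM in control, 9156, 7350 and 6524 after caffeine, 4668, 8608 and 6640 after dextromethorphan, and 4372, 6953 and 5522 after both. All treated libraries were above control and the treated groups overlapped, so each treatment reached a like level. It was 2.81-fold, 2.38-fold and 2.04-fold of control after caffeine, dextromethorphan and both (departure -1.71 ± 0.45, adjusted p = 0.0415). miR-199a-3p of stromal cells had 65879, 56740 and 78448 in control, 162980, 163059 and 137339 after caffeine, 222260, 85721 and 176099 after dextromethorphan, and 81443, 152666 and 92739 after both. DEX2 was lowest of the single-drug libraries, and CAFDEX3 was highest of the combination. It departed by -1.73 ± 0.46 (adjusted p = 0.0415), its other arm miR-199a-5p by -1.02 ± 0.70 and the clustered miR-214-3p by -1.57 ± 0.55, neither passing.

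miR-152-3p had 26047, 29526 and 34815 FPKM in control, 51826, 54524 and 54929 after caffeine, 57305, 51423 and 48101 after dextromethorphan, and 37882, 49171 and 24533 after both. All 6 single-drug libraries were above control, while the combination libraries ran from below control to within the dextromethorphan range. Its departure was the smallest of the 17, -1.39 ± 0.37 (adjusted p = 0.0415), 2.62-fold under the product (1.52 to 4.52). miR-148a-3p and miR-148b-3p, which carry the same seed, had departures of 0.42 and -0.16 and did not pass. Just outside the threshold stood miR-149-5p, at -1.37 ± 0.38 (adjusted p = 0.0510). It was the 1 tested microRNA (0.273%) whose 6 single-drug libraries, 10735 to 20344 FPKM, all lay above the 6 control and combination libraries, 7963 to 10607 FPKM.

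**Figure D2:**
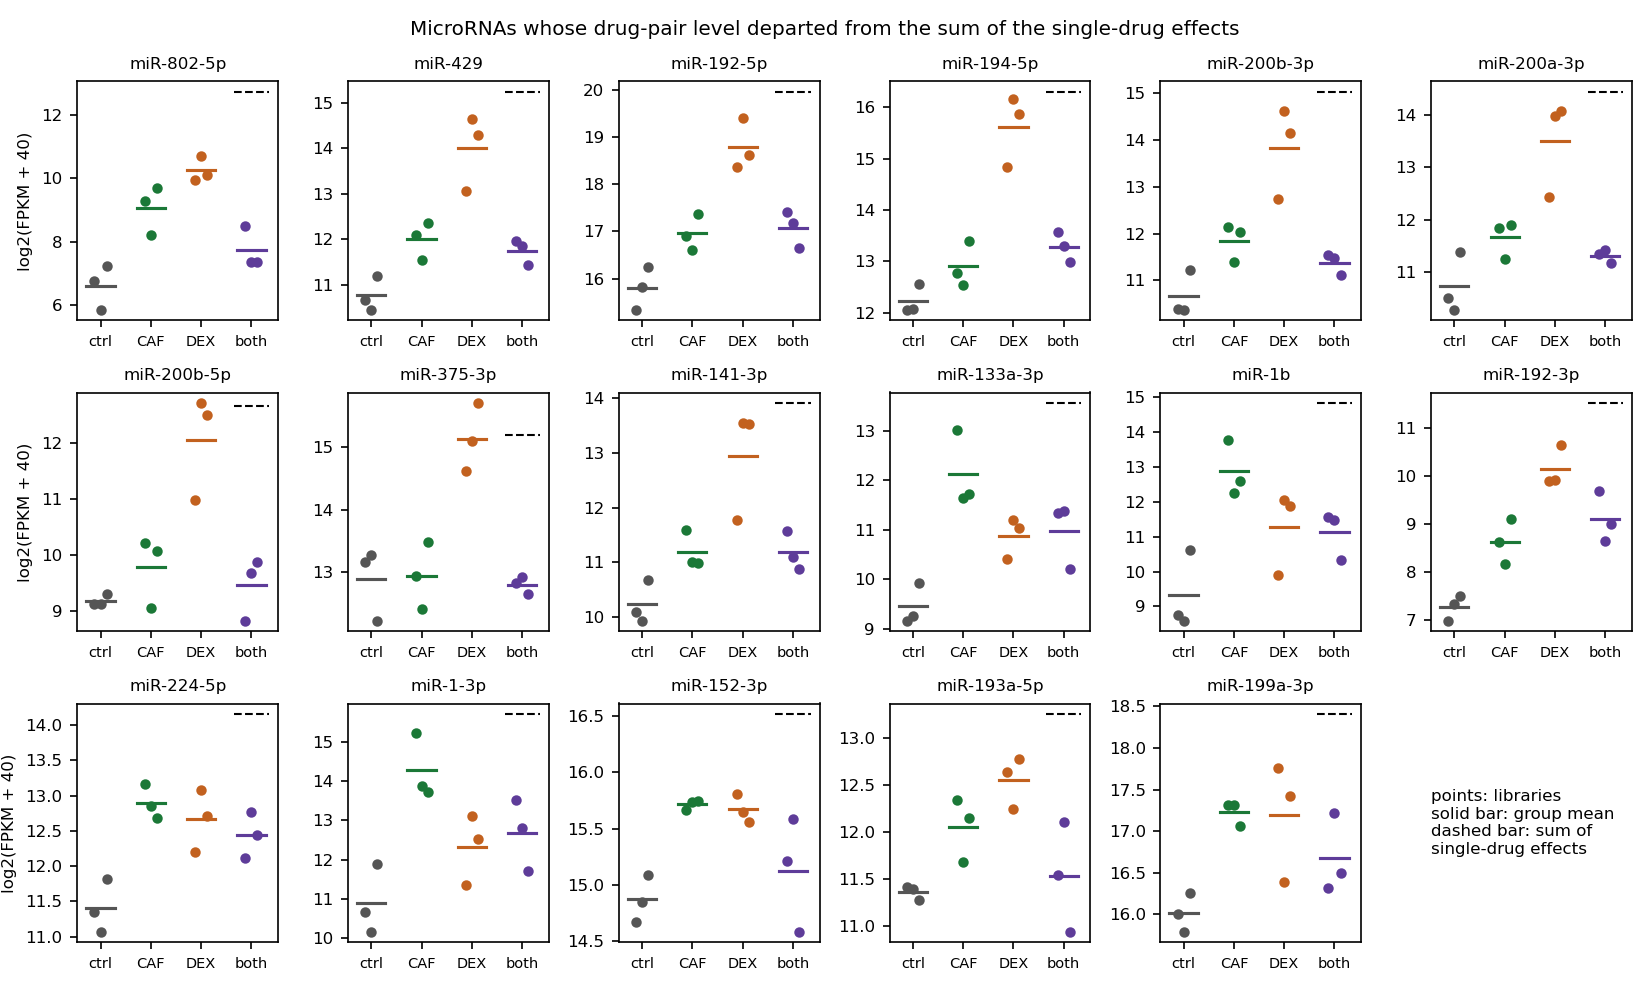
Level of each of the 17 microRNAs in the 12 libraries, as log2(FPKM + 40), by group, with solid bars for group means and a dashed bar for the sum of the single-drug effects. The mean after both drugs lies under the dashed bar in every panel, and vertical axes differ between panels and do not start at 0.

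The departure on the log scale asks more of the pair than a sum of levels does, so the same quantity was computed on the linear scale, as FPKM after both minus caffeine minus dextromethorphan plus control. It was negative for 17 of 17, each by more than 2 SE, a description with no test. For miR-192-5p the sum of levels was 548760 FPKM and the mean after both 142053. For miR-375-3p it was 37923 against 7123, and for miR-1-3p 25874 against 7373, where the linear departure of -18500.2 FPKM had the largest SE relative to its size (8641). The group mean after both lay below both single-drug means for 12 of the 17 and between them for 5 (miR-192-5p, miR-194-5p, miR-192-3p, miR-133a-3p and miR-1-3p). Over all 366 tested it lay below both single-drug means for 161 (44.0%), between them for 133 and above both for 72. The negative departure favours the first of these positions, so the counts describe the 17 and test nothing. Against control alone, 7 of the 17 were higher after caffeine, 14 after dextromethorphan and 4 after both (limma adjusted p under 0.05), where 6.83%, 11.5% and 6.56% of all tested were. All 3 libraries lay above all 3 controls for 13 of the 17 after caffeine, 15 after dextromethorphan and 9 after both, against 26%, 26% and 18% of all tested. These comparisons share the control libraries with each other and with the departure, so nothing is read from them. miR-375-3p was the 1 of the 17 whose mean after both was under the control mean.

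**Figure D3:**
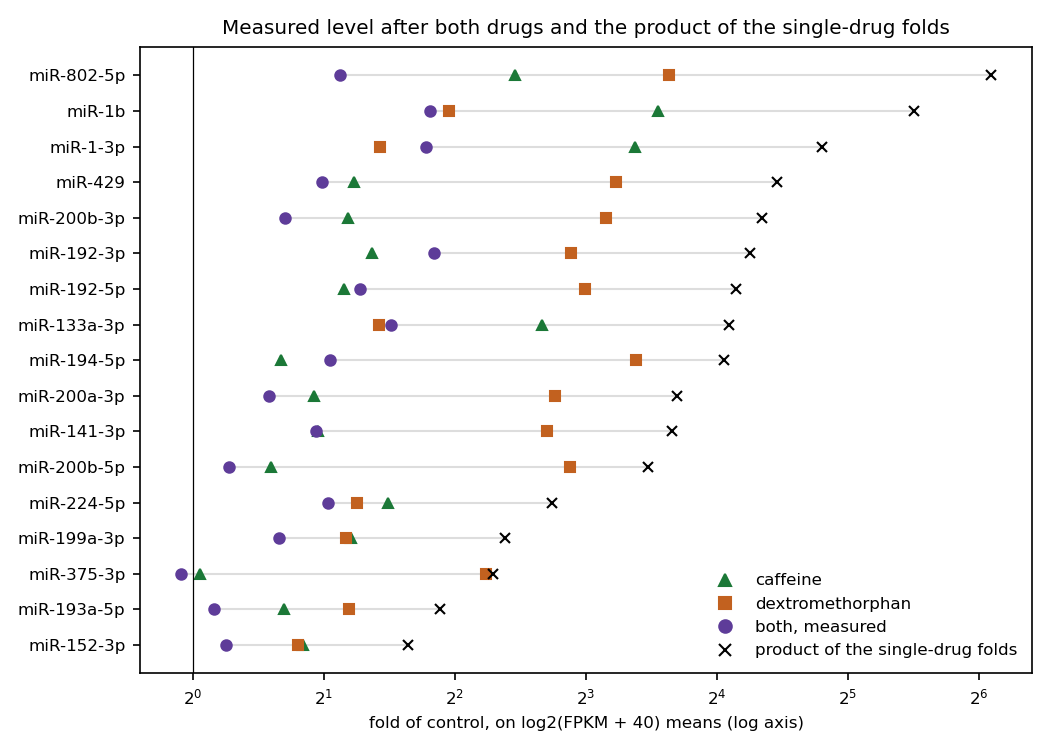
Fold of control on a log axis for each of the 17 microRNAs, after caffeine (triangles), dextromethorphan (squares) and both (circles), with the product of the single-drug folds as a cross. The measured value after both runs from 0.938 to 3.59 and the product from 3.13 to 68.5, so every circle lies left of its cross.

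On the other side of 0 the 5 smallest p-values belonged to miR-210-5p (2.29 ± 0.99), miR-450b-5p (1.91 ± 0.92), miR-223-3p (0.64 ± 0.31), miR-1306-5p (0.80 ± 0.39) and miR-18a-3p (1.36 ± 0.66), with limma adjusted p of 0.210 for the first and 0.242 for the others. miR-210-5p rests on at most 21 reads and was at 0 in DEX2 and DEX3. miR-223-3p, abundant in neutrophils and platelets, had 3073388, 3169191 and 2756723 FPKM in control, 2684383, 2867951 and 2282305 after caffeine, 1857672, 2329081 and 1587469 after dextromethorphan, and 3140371, 2248240 and 2398989 after both. Dextromethorphan libraries tended to the low end, and all groups but control and dextromethorphan overlapped.

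No leukocyte microRNA passed. miR-150-5p, abundant in lymphocytes, had 318029, 430633 and 650815 FPKM in control, 1162738, 854347 and 1765537 after caffeine, 663152, 1044434 and 824998 after dextromethorphan, and 2137834, 2525060 and 1616751 after both. All treated libraries lay above control, and CAFDEX2 and CAFDEX3 were the highest of the 12. The single-drug log2 changes of 1.43 and 0.89 sum to 2.33, and 2.20 was measured, a departure of -0.12 ± 0.44 (adjusted p = 0.916, 95% interval -1.06 to 0.82). Of 14 tested leukocyte members 8 were below 0 and 6 above, and the median was -0.13. miR-342-3p had 0.50 ± 0.30.

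Among the other lists no member passed apart from miR-199a-3p in the platelet list. Endothelium and smooth muscle had 16 of 17 departures below 0, where 68.3% of all tested were, and a median of -1.47, with miR-143-3p at -1.48 ± 0.79 and miR-125b-5p at -1.28 ± 0.53. The imprinted Dlk1-Dio3 locus, whose microRNA genes are maternally expressed, had 18 of 21 below 0 and a median of -1.08, with miR-409a-3p at -1.79 ± 0.59 (adjusted p = 0.0945) and miR-382-5p at -1.22 ± 0.61. Erythrocyte microRNAs had a median of -0.29 over 10 members, 7 below 0 and 3 above. The abundant miR-16-5p was at 0.11 ± 0.28 and miR-15b-5p at -0.39 ± 0.34. The red-cell marker miR-451-5p was at -1.33 ± 0.47 (adjusted p = 0.117), and miR-451-3p was lowest, at -2.37 ± 0.69 (limma adjusted p = 0.0625). The summed level of the erythrocyte list was 4373956 to 4589662 FPKM in control, 4144727 to 4411097 after caffeine, 4600776 to 5672096 after dextromethorphan and 4469132 to 5986931 after both. miR-16-5p alone averaged 4384797 FPKM in control. The platelet list had a median of -0.60 (miR-24-3p -0.32 ± 0.33). Of 4 endocrine members 2 were tested, and the remaining tested one, miR-7a-5p, was at -0.36 ± 0.63.

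Besides leukocyte, with its median of -0.13, the lists nearest to 0 were let-7, the miR-17 clusters and brain. Their medians were -0.09 over 13 members, 0.01 over 20 and 0.27 over 11. let-7c-5p and let-7b-5p departed by 0.17 ± 0.43 and 0.11 ± 0.43. miR-92a-3p and miR-25-3p of the miR-17 clusters departed by 0.49 ± 0.41 and -0.19 ± 0.34, and the brain-enriched miR-128-3p and miR-383-5p by 0.27 ± 0.39 and 0.80 ± 0.49. The most abundant microRNA, miR-191a-5p, had 0.37 ± 0.32, miR-30d-5p 0.39 ± 0.36 and miR-140-3p -1.09 ± 0.37 (adjusted p = 0.0945).

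**Figure D4:**
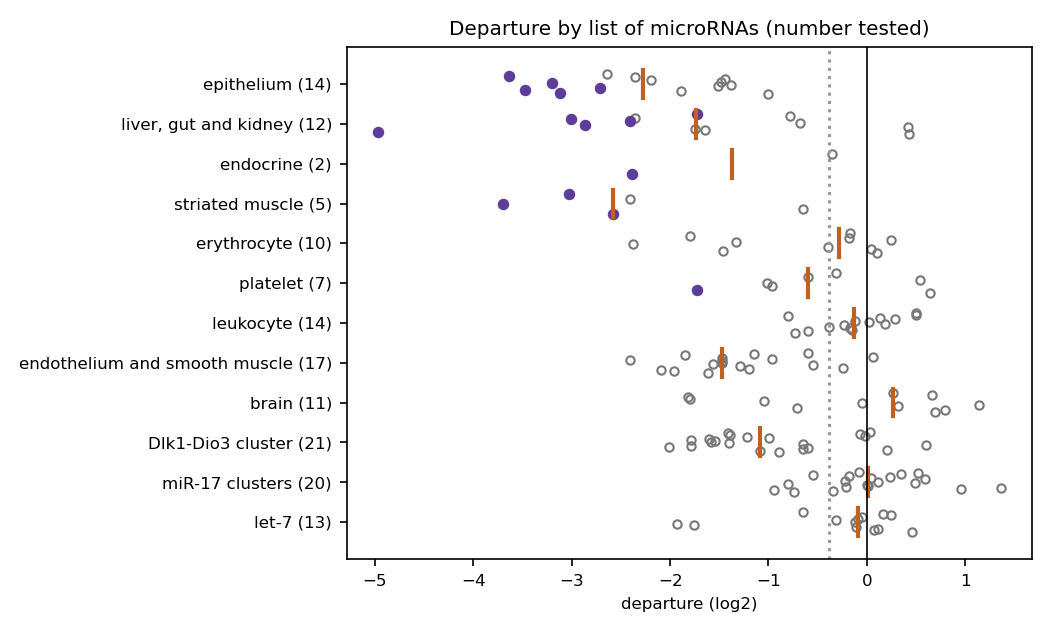
Departure in log2 units of each tested member of 12 lists, with the number tested in brackets; filled points passed at a limma adjusted p under 0.05, orange bars are list medians and the dotted line is the median of all tested. Medians run from -2.58 in striated muscle to 0.27 in brain, against -0.39 over all.

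Neighbours of the 17 on the genome and other arms of their hairpins gave 11 further members. Of these 7 were tested, all 7 had a departure below 0 (68.3% over all tested) with a median of -1.57, and none passed. The 7 share a hairpin or genome position with microRNAs picked for negative departures in the same libraries. Their sign is therefore no separate evidence. The other 4 were under the level filter, among them miR-133a-5p (-2.19) and miR-152-5p (0.75), each with a mean under 80 FPKM. The 113 members under the filter had a mean of at most 2.33 reads per library, departures from -2.35 to 2.09 and a median of -0.18. When they were included in the fit 9 microRNAs passed, none of them from the 113.

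The count of 17 moved with single libraries. It was 8 without ctrl3, 8 without CAF3, 8 without DEX3, 8 without CAFDEX6, 10 without ctrl1, 11 without CAF5 and 38 without CAFDEX3. A set of 5 of the 17, miR-802-5p, miR-429, miR-192-5p, miR-194-5p and miR-200b-3p, passed under all 26 alternatives, and in no alternative did any of the 17 rise above -0.82. Without DEX2 and DEX3 together, where DEX1 stands alone and is taken to vary like the other groups, 20 of 366 passed (5.46%), 6 of them among the 17: those 5 and miR-199a-3p. The median of the 17 was then -2.12 against -2.87 with all libraries. With median-of-ratios scaling 8 passed, with quantile normalization 7 and without miR-191a-5p 11.

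**Figure D5:**
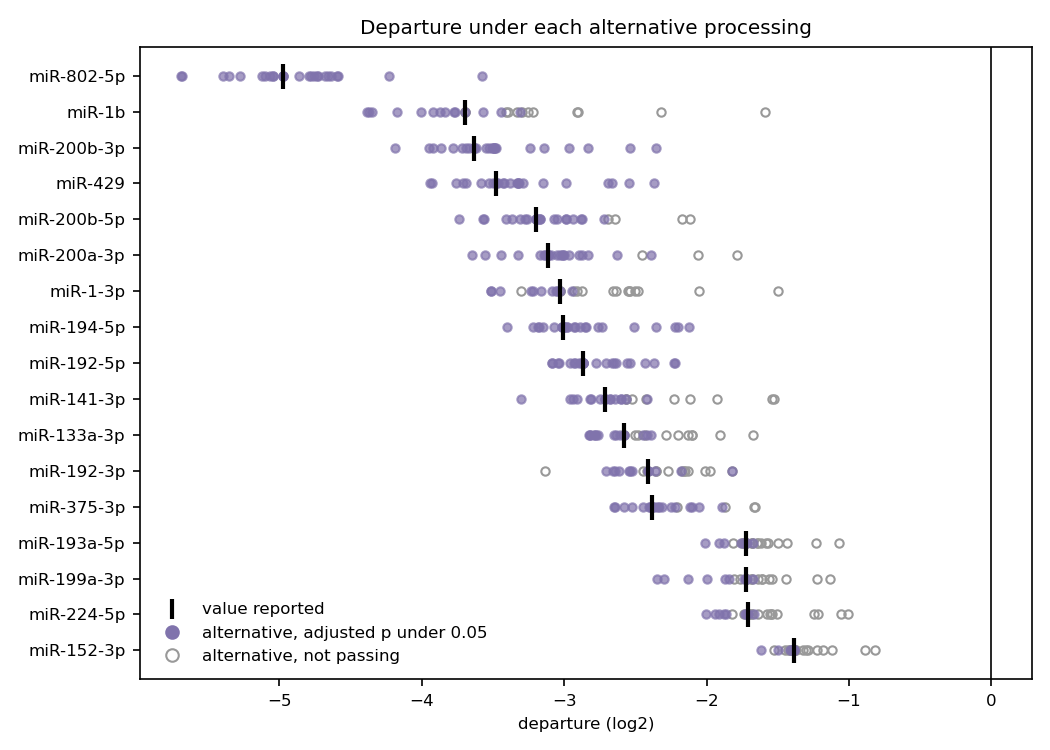
Departure in log2 units of each of the 17 microRNAs under every alternative (points, filled where the limma adjusted p is under 0.05) and as reported (black bars). All points lie below 0, and miR-802-5p, miR-429, miR-192-5p, miR-194-5p and miR-200b-3p are filled throughout.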

How the data were processed

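Small RNA from 200 uL of serum was sequenced after QIAseq miRNA library preparation, per the labels' protocols. No source used here says whether its molecular indices were used to collapse reads. The values are FPKM per mature microRNA, deposited by the authors, 1 column per library. The submitters' processing notes name rn6, STAR 2.7.10a, DESeq2 1.20.0, cutadapt 3.7, and featureCounts with Subread 2.0.1, with no step for each. FPKM times length sums to 1 constant per library, so values are shares of reads assigned to the listed microRNAs. Steps of 0.01 read accounted for 100% of values and gave library totals; 65.4% to 75.0% of values were whole reads. Column names gave groups but not sample numbers, so libraries are named as in the columns.

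The 836 rows were summed to 752 names, of which 69 stood in more than 1 row. log2(FPKM + 40) was fitted with limma 3.58.1 in R 4.3.3 over 4 groups with a mean-variance trend (8 residual and 7.58 prior degrees of freedom), and the departure was a contrast of all 4. Intervals are 95% from that fit, and the pseudocount understates changes of low microRNAs. One read on 22 nucleotides was worth 17.3 to 113 FPKM. On simulated data with independent noise over 366 microRNAs, 100 were given departures of 2 log2 units and 100 of 3. The fit recovered 75% and 92% of them, with 4 false calls. Far more microRNAs were changed there than the 17 that passed here, which eases the Benjamini-Hochberg threshold. These shares can therefore overstate recovery in the measured data. Named microRNAs were those passing, the 5 smallest p above the sum, the 2 most abundant of each list, the 10 most abundant, and hairpin arms and neighbours within 10 kb. miR-149-5p, miR-148b-3p, miR-451-5p and miR-451-3p were named after their values were seen. The members and lists were chosen with earlier results of these data known. Figures were made with matplotlib 3.10.9.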

Additional observations from a re-analysis of the deposited data

Results flagged for a closer look

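The effect of dextromethorphan differed between libraries without and with caffeine for 17 microRNAs, by the interaction contrast (limma adjusted p under 0.05). Each of the 17 had a negative log2 departure. These were miR-802-5p (-4.97), miR-1b (-3.70), miR-200b-3p (-3.64), miR-429 (-3.48), miR-200b-5p (-3.20), miR-200a-3p (-3.12), miR-1-3p (-3.03), miR-194-5p (-3.01), miR-192-5p (-2.87), miR-141-3p (-2.72), miR-133a-3p (-2.58), miR-192-3p (-2.41), miR-375-3p (-2.38), miR-193a-5p (-1.73), miR-199a-3p (-1.73), miR-224-5p (-1.71) and miR-152-3p (-1.39). By construction, a level that is equal in the 3 treated groups and above control also gives a negative departure.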

How the results depend on the processing

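All 17 departures kept their sign under each of the 26 alternatives and on the linear scale. The count of 17 was 9 without the level filter, 8 with median-of-ratios scaling, 7 with quantile normalization, 11 without miR-191a-5p, 7 with the red-cell ratio and 5 with the library total as covariate, 50 with library weights (49 below the sum and 1 above, miR-210-5p at 3.01), and 8 to 38 when 1 library was left out; the cause was not tested. The median departure was 0.10 with median-of-ratios scaling, 0.14 with quantile normalization, -0.23 without miR-191a-5p, -0.54 after thinning, -0.20 with the library total as covariate and -0.47 to -0.27 leaving out 1 library. No paired analysis was possible because the columns carry no replicate number of the labels.

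Against control 25 microRNAs were higher after caffeine, 42 after dextromethorphan and 24 after both. In that order the counts were 16, 16 and 12 without miR-191a-5p, 9, 18 and 10 without the mean-variance trend, 90, 78 and 53 with library weights, 5, 1 and 1 with the red-cell ratio, 16, 0 and 0 with the library total as covariate and 38, 18 and 38 without DEX2 and DEX3. After caffeine and dextromethorphan they were 12 and 15 with median-of-ratios scaling and 11 and 13 with quantile normalization. After caffeine and both they were 12 and 9 without the level filter, and after caffeine 43 with voom on recovered counts. Leaving out 1 library gave 4 to 39, 12 to 66 and 3 to 37.

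No departure that turned sign had passed the test. Most were near 0 with all libraries, while miR-200c-3p was at -1.51, miR-382-5p at -1.22 and miR-199a-5p at -1.02. With median-of-ratios scaling miR-7a-5p was 0.14, miR-15b-5p 0.10, miR-24-3p 0.18, miR-150-5p 0.38 and miR-25-3p 0.31. With quantile normalization miR-7a-5p was 0.42, miR-15b-5p 0.025, miR-25-3p 0.036 and let-7b-5p -0.052. With the red-cell ratio as covariate miR-7a-5p was 0.63, miR-150-5p 0.34, miR-25-3p 0.27 and let-7b-5p -0.14. With the library total miR-7a-5p was 0.87, miR-150-5p 0.61, miR-128-3p -0.11, miR-382-5p 0.055, miR-92a-3p -0.038 and miR-25-3p 0.15. Without DEX2 and DEX3 miR-200c-3p was 0.079, miR-7a-5p 0.65, miR-150-5p 0.20 and miR-25-3p 0.21. Without miR-191a-5p miR-150-5p was 0.042, with library weights let-7c-5p was -0.26 and let-7b-5p -0.29, and after thinning miR-199a-5p was 0.81. Leaving out 1 library, miR-150-5p ran from -0.39 to 0.15, miR-25-3p from -0.38 to 0.0089, let-7c-5p from -0.044 to 0.51 and let-7b-5p from -0.11 to 0.49. Depth limits the low microRNAs: 1 read was worth up to 113 FPKM, above the pseudocount.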

Other observations

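When DEX2 and DEX3 were left out, with DEX1 as the only dextromethorphan library, 20 of 366 microRNAs departed below the sum by limma (5.46%), and 14 of them did not pass with all libraries. In that fit 6 of the 17 tested members of the endothelium and smooth muscle list passed (miR-143-3p, miR-143-5p, miR-145-3p, miR-10a-5p, miR-100-5p and miR-99a-5p), named after their values were seen. miR-143-3p, abundant in smooth muscle, had 371330, 359082 and 250252 FPKM in control, 243658, 477437 and 542795 after caffeine, 1805771, 315651 and 612588 after dextromethorphan, and 163046, 689036 and 273362 after both. DEX1 stood above all others and CAFDEX3 was second, while the remaining libraries overlapped. The departure of miR-143-3p was -1.48 ± 0.79 with all libraries and -2.83 ± 0.75 without DEX2 and DEX3 (limma adjusted p = 0.0442). For miR-10a-5p DEX1 was also highest, at 444688 FPKM against 59410 to 179179 elsewhere. Within the dextromethorphan group these 6 microRNAs were highest in DEX1, and the epithelial miR-429, miR-200b-3p and miR-200c-3p were lowest there. The 6 were picked from the fit in which DEX1 stands alone. Their high values in DEX1 therefore follow from that choice, and nothing is read from the contrast.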
